A study of Homo sapiens with 4 samples.

Results

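The features described here were a run of microRNA accession numbers, MIMAT0004481 to MIMAT0004699, on an oligonucleotide chip that measured 856 features in 4 lines of human oesophageal squamous cell carcinoma. This stretch of miRBase numbers was given mostly to the opposite-arm ("star") sequences of hairpins whose first arm was already known. The run holds 219 numbers, of which 123 were on the chip. The selection rule set aside 2 of these, MIMAT0004494 and MIMAT0004504, leaving 121 features, called the second-arm block below. The rule selects by accession number and gives no reason for leaving out those 2, both of which had signal (values at the end). The deposited table does not pair accessions with names, and none of its 856 accessions was found in the RefSeq tables used here (0 matches). No feature is therefore given a microRNA name, a hairpin, a sequence or a genomic position, and how many of the 121 are true opposite-arm sequences was not checked.

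A microRNA is cut from a hairpin-shaped precursor. Drosha and then Dicer release a short duplex whose strands come from the left (5p) and right (3p) arms of the hairpin, and usually one strand is kept in an Argonaute protein while its partner is degraded. The discarded partner was once written with a star. Some hairpins keep both strands, and the preferred strand can differ between tissues.

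The lines, established cultures from squamous tumours of the gullet, were KYSE-450 and KYSE-520 along with KYSE-890 and KYSE-960, with 1 array each. All were grown in medium with 5% serum and received no treatment that the labels name. From each, 500 ng of total RNA was labelled with the dye Hy5 and hybridized for 16 h at 32 °C. No normal tissue and no second array of any line was included, so the spread between replicates is unknown and nothing was tested. The labelled cell type was not checked against squamous markers such as miR-205, because no feature could be matched to them.

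A feature was called above background on an array when its intensity exceeded the array median plus 3 times the SD of the features on the dim side of that median. For KYSE-450 this threshold was 135 intensity units (array median 78.8), for KYSE-520 it was 146 (85.5), for KYSE-890 it was 128 (80.5) and for KYSE-960 it was 129.7 (77.5). The arrays differed in how brightly their stronger features shone. Among the features above background on an array, the median intensity was 435 for KYSE-520 and 486.5 for KYSE-450, and was 262 for KYSE-960 and 292.5 for KYSE-890. Fewer cells expressing a microRNA and less of it per cell cannot be told apart in RNA from whole cultures.

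Few features of the second-arm block gave signal. Of 121, 11 (9.09%) were above background in at least 1 line, against 19.6% of all 856 features, and 3 were above background in all 4 lines, against 8.76% of all features. The other 110 (90.9%) were not above background in any line. By line, 6 features of the block were above background in KYSE-450 (4.96%, against 13.8% of all features) and 9 in KYSE-520 (7.44%, against 17.5%). The counts were 3 in KYSE-890 (2.48%, against 11.1%) and 5 in KYSE-960 (4.13%, against 11.0%). The block thus lay below the share for the whole chip on each of the 4 arrays. These shares were not tested, since features are not replicates.

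The numbers on either side of the block gave larger shares. Of the 465 features with lower accession numbers, 121 (26.0%) were above background in at least 1 line, and of the 268 with higher numbers, 34 (12.7%) were. In all 4 lines, 51 of the lower-numbered and 21 of the higher-numbered features were above background. The lower-numbered features ranged from 13.1% above background in KYSE-960 to 24.3% in KYSE-520. The higher-numbered ones ranged from 8.58% in KYSE-450 to 10.4% in KYSE-960, so the second-arm block had the smallest share of the 3 sets on every array.

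**Figure D1:**
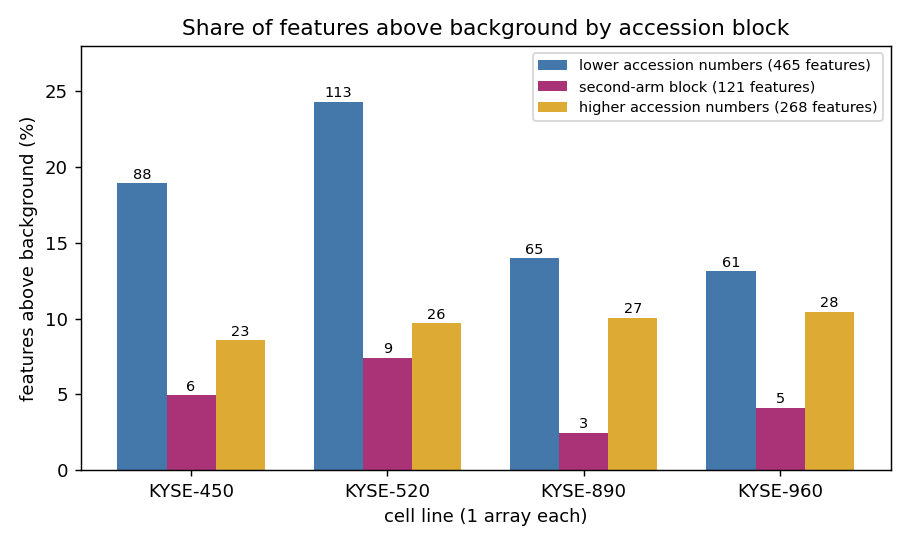
Percentage of features above background (vertical axis) on the array of each line (horizontal axis), for the second-arm block and for the features with lower and higher accession numbers; the figure over each bar is the count. The bars of the second-arm block, at 2.48% to 7.44%, are the shortest in every line.

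Most of the block was also dim. Of its 121 features, 4 reached 200 intensity units in any line and 1 reached 500, compared with 125 and 71 of all 856 features. The median intensity of the block was 85.0 for KYSE-520 and 80.0 for KYSE-890, and 77.5 both for KYSE-450 and for KYSE-960. On each array this lay within 1.5 units of the median of all features. The upper quartile in KYSE-520 was 101 for the block, 142.5 for the lower-numbered and 100.1 for the higher-numbered features, and in KYSE-450 these were 88.0, 105 and 93.5. In KYSE-890 they were 92.0, 98.5 and 98.1, and in KYSE-960 91.0, 94.0 and 93.1. Below the few features with signal, the block was thus about as dim as the higher-numbered features.

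**Figure D2:**
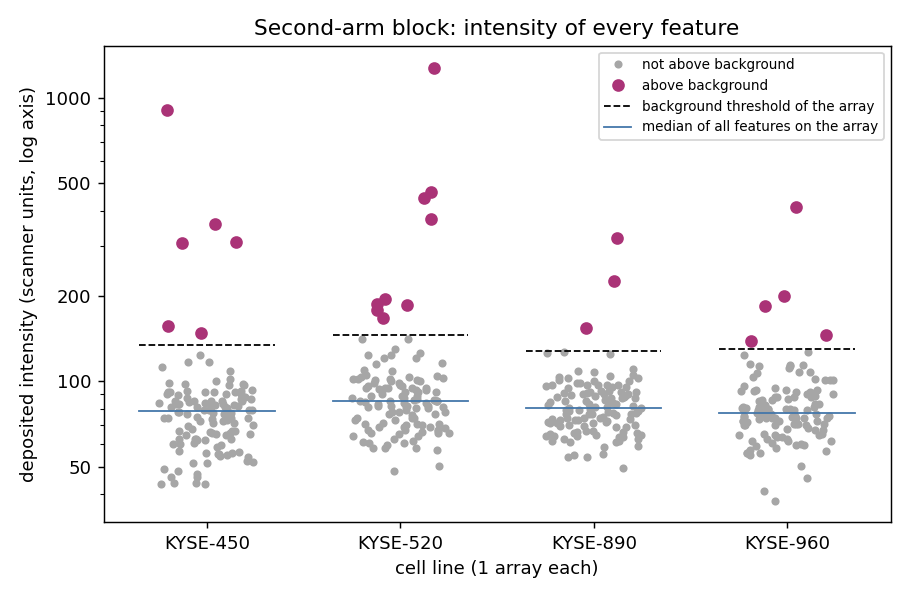
Deposited intensity (vertical log axis, scanner units) of each of the 121 features of the second-arm block on the array of each line, with the array's background threshold (dashed) and the median of all its features (solid). Most points lie around the array median, and from left to right 6, 9, 3 and 5 points lie above the thresholds.

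The 3 features of the block above background in all 4 lines each had its own pattern between lines. MIMAT0004561 gave 1277 intensity units in KYSE-520 and 908.5 in KYSE-450, against 200.5 in KYSE-960 and a value 1.2 times the background threshold in KYSE-890. It was thus high in KYSE-450 and KYSE-520 and lower, though above the threshold, in the other lines. In KYSE-960 its value was 1.55 times the threshold. The deposited intensity in KYSE-520 was 8.29-fold that in KYSE-890 and 6.37-fold that in KYSE-960, and in KYSE-450 it was 5.90-fold and 4.53-fold. After quantile normalization, which gives all arrays the same set of values, these folds were 3.18, 2.07, 2.90 and 1.88, so the direction held and the sizes shrank. KYSE-450 and KYSE-520 differed by 1.41-fold before and 1.10-fold after normalization.

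MIMAT0004697 gave 442.5 in KYSE-520 and 307.5 in KYSE-450, then 184.5 in KYSE-960 and 225.5 in KYSE-890. In the deposited values KYSE-520 was the highest line and KYSE-960 the lowest, a 2.40-fold span. After normalization the span was 1.42-fold, with KYSE-890 highest and KYSE-520 lowest. Which line ranked first therefore depended on the scaling, and the highest line also shifted with the scaling across the chip, as given below.

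MIMAT0004609 gave 375 in KYSE-520 and 311 in KYSE-450, then 412 in KYSE-960 and 321 in KYSE-890, a span of 1.32-fold in the deposited values. This near evenness differed from most of the features above background in all 4 lines, whose median span was 2.86-fold. Only 5 of those 75 had a smaller span. Of the 75 features above background in all 4 lines, 43 were highest in KYSE-520 and 14 in KYSE-450, then 5 in KYSE-960 and 13 in KYSE-890, and MIMAT0004609 was among the 5. The mean log2 intensity of the first pair of lines (KYSE-450, KYSE-520) minus that of the second (KYSE-890, KYSE-960) was -0.09 for MIMAT0004609, 0.85 for MIMAT0004697 and 2.62 for MIMAT0004561. The labels do not pair the lines, so this grouping is a description and not a factor of the design. The median difference over the 75 features was 0.85, and 58 of the 75 were above 0. On this difference 14 features lay lower than MIMAT0004609 and 62 lay lower than MIMAT0004561, while MIMAT0004697 lay near the median of the 75.

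Normalization turned the evenness of MIMAT0004609 into a difference. Its normalized intensity was 229.6 in KYSE-520 and 278 in KYSE-450, then 1135 in KYSE-960 and 708 in KYSE-890, so that KYSE-960 was 4.94-fold above KYSE-520 and 4.09-fold above KYSE-450. The deposited values gave 1.10-fold and 1.32-fold for the same comparisons. The shift was not particular to this feature. After normalization, 10 of the 75 features above background in all 4 lines were highest in KYSE-520 and 14 in KYSE-450. A further 19 were highest in KYSE-960 and 32 in KYSE-890. With the medians of features shared by all arrays set equal instead, KYSE-520 minus KYSE-960 was -0.95 log2 and KYSE-450 minus KYSE-960 was -0.81 log2, and all 4 comparisons of MIMAT0004609 across the pairs of lines stayed under 2-fold. KYSE-890 was 3.08-fold above KYSE-520 after normalization, whereas the deposited intensity was 1.17-fold higher in KYSE-520. KYSE-890 and KYSE-960 were also the arrays with the dimmer features above background (medians of 292.5 and 262), and the part of array brightness in this difference was not tested.

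A further 3 of the 121 features were above background in exactly 2 lines, against 32 of all 856 features. MIMAT0004602 measured 467 in KYSE-520 and 359.5 in KYSE-450, but 113 in KYSE-960 and 76.5 in KYSE-890, where it was not above background. Its brighter values were well over the thresholds, up to 3.19 times. A fold against a feature that is not above background is a bound, for which the dim value was replaced by that of the array's dimmest feature above background where this was higher. The deposited intensity in KYSE-520 was at least 3.61-fold that in KYSE-890 and at least 3.57-fold that in KYSE-960. In KYSE-450 it was at least 2.78-fold and at least 2.74-fold. After normalization the 4 bounds lay between at least 1.5-fold and at least 1.62-fold.

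MIMAT0004493 showed the same lines above background with weaker signal, at 178.5 in KYSE-520 and 156.5 in KYSE-450, against 80.0 in KYSE-960 and 81.5 in KYSE-890. Its bounds in the deposited values lay between at least 1.20-fold and at least 1.38-fold. After normalization no bound could be given for any of these comparisons. Of all 856 features, 24 were above background in exactly KYSE-450 and KYSE-520, and these 2 were among them. MIMAT0004672 was above background in KYSE-450 (148) and KYSE-960 (145.5), and not in KYSE-520 (98.5) or KYSE-890 (124.5). Its brighter values were at most 1.12 times the thresholds.

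A single line was above background for 5 features. In KYSE-520 these were MIMAT0004558 at 194.5, MIMAT0004495 at 188, MIMAT0004497 at 186.5 and MIMAT0004553 at 167.5. All 4 were between 1.15 and 1.33 times the threshold of that array. Their values elsewhere ran from 44.0 to 102, under the thresholds of those arrays. KYSE-520 alone also held 30 of the 45 features of the whole chip that were above background in a single line. The fifth was MIMAT0004682, at 138.5 in KYSE-960, 1.07 times the threshold, and between 81.0 and 95.0 in the other lines.

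**Figure D3:**
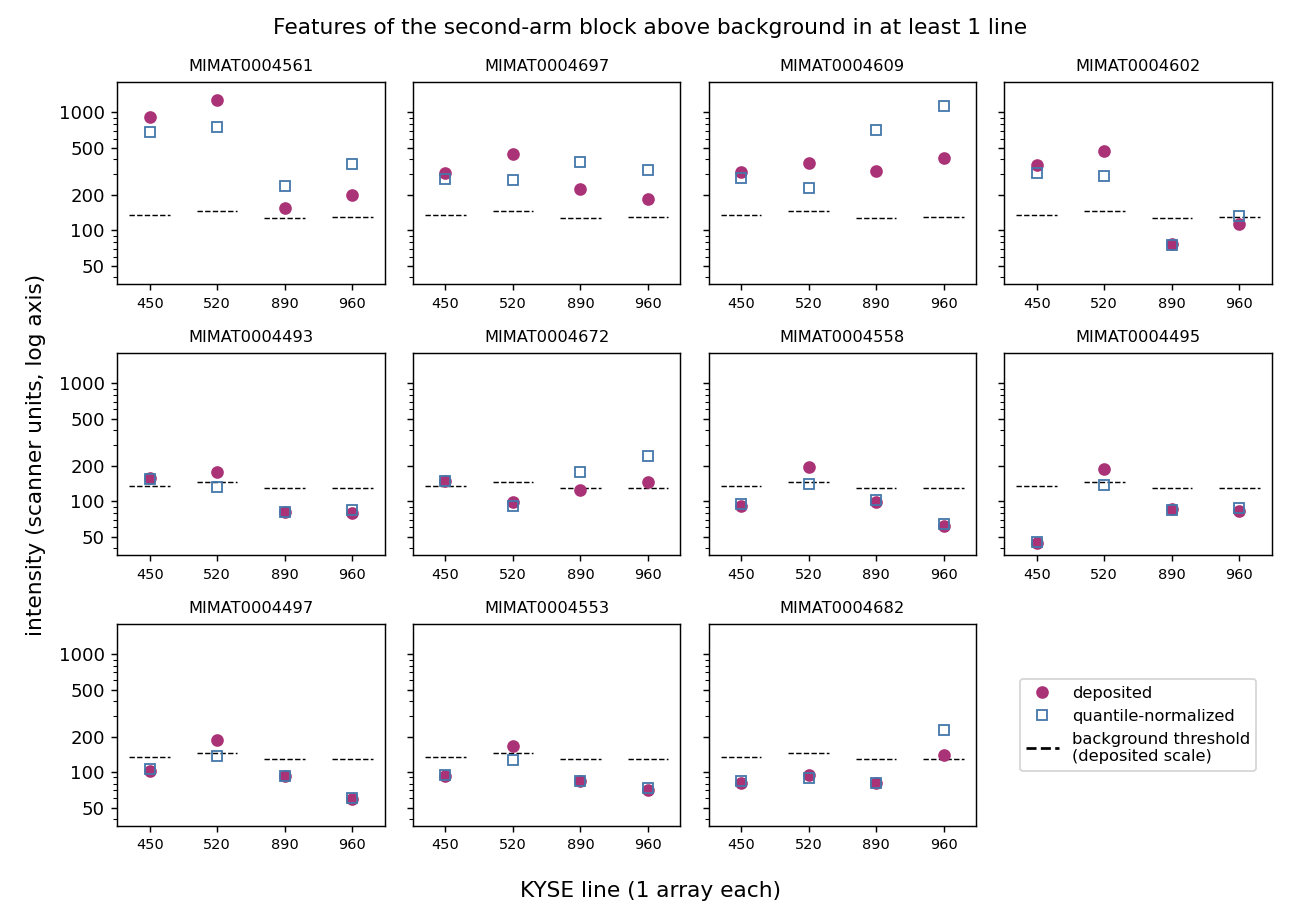
Intensity (vertical log axis, scanner units) of the 11 features of the second-arm block above background in at least 1 line, by KYSE line (horizontal axis), as deposited (filled circles) and after quantile normalization (open squares), with the background threshold on the deposited scale (dashed). MIMAT0004561 and MIMAT0004602 are higher in KYSE-450 and KYSE-520 on both scales, and MIMAT0004609 is nearly level as deposited and reaches 1135 in KYSE-960 after normalization.

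The threshold divided a continuous range of weak signals. Just under it, MIMAT0004593 measured 127 in KYSE-890 against a threshold of 128, MIMAT0004509 measured 126 on the same array, and MIMAT0004597 measured 127 in KYSE-960 against 129.7. MIMAT0004597 also measured 140.5 in KYSE-520, under the threshold of 146. The 110 features never above background ranged from 38.0 to 141.5. Their order was weakly shared between arrays. Spearman's rho across these 110 features was 0.19 to 0.37 over the 6 pairs of arrays, and across the 578 other features never above background it was 0.17 to 0.31. These values are descriptions across features that share arrays and probes.

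Differences between lines were counted for features above background in at least 1 of the lines compared, when their log2 values, floored at the array median, were 2-fold or more apart. For KYSE-450 against KYSE-520, 0 of the 121 features differed after normalization, against 2.34% of all features. In the deposited values 2 were higher in KYSE-520, MIMAT0004495 and MIMAT0004558, against 4.21% of all features. Between KYSE-890 and KYSE-960, 1 feature, MIMAT0004682, was higher in KYSE-960 after normalization, against 3.5% of all features. In the deposited values 0 differed, against 1.4%. A call needs signal in at least 1 of the lines compared, which 10 features of the block had for KYSE-450 against KYSE-520 (156 of all features) and 5 had for KYSE-890 against KYSE-960 (111 of all). The low counts are set by this, and no lack of difference is read from them.

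Comparisons across the pairs follow. Between KYSE-450 and KYSE-890, 3 features differed after normalization, against 8.53% of all features. MIMAT0004561 and MIMAT0004602 were lower and MIMAT0004609 was higher in KYSE-890. The deposited values gave 2, both higher in KYSE-450, against 8.18%. Over all features, 62 were called higher and 8 lower in KYSE-450. Between KYSE-450 and KYSE-960, 3 differed after normalization, against 8.88%, with MIMAT0004602 lower and 2 others higher in KYSE-960. The deposited values gave 2, MIMAT0004561 and MIMAT0004602, both higher in KYSE-450, against 7.48%. Over all features, 63 were called higher and 1 lower in KYSE-450.

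For KYSE-520 against KYSE-890, 3 features differed after normalization, against 9.7% of all features, with MIMAT0004561 and MIMAT0004602 higher in KYSE-520 and MIMAT0004609 lower. The deposited values gave 5, all higher in KYSE-520, against 11.1%. Over all features, 89 were called higher and 6 lower in KYSE-520. KYSE-520 differed from KYSE-960 in 5 features after normalization, against 9.81%, with 2 higher and 3 lower in KYSE-520. The higher ones were MIMAT0004561 and MIMAT0004602, and the lower ones MIMAT0004609, MIMAT0004672 and MIMAT0004682. The deposited values gave 8, all higher in KYSE-520, against 11.3%. Over all features, 95 were called higher and 2 lower in KYSE-520, so the block shared the direction of the whole chip. In these 4 comparisons between 6 and 11 features of the block, and between 127 and 158 of all features, had signal in at least 1 of the lines compared. The counts called cannot exceed these numbers, and nothing is read from the shares about how strongly the block differed between lines.

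Only MIMAT0004602 was called in all 4 comparisons across the pairs under both scalings, although its bounds after normalization, given above, stayed under 2-fold. MIMAT0004561 was called in all 4 with the deposited values and in 3 after normalization, where its fold between KYSE-450 and KYSE-960 was 1.88. Against KYSE-450 or KYSE-520, no feature of the block above background in a line compared was called higher in KYSE-890 or KYSE-960 in the deposited values. Such calls were few on the whole chip too, between 1 and 8 in each of these comparisons.

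**Figure D4:**
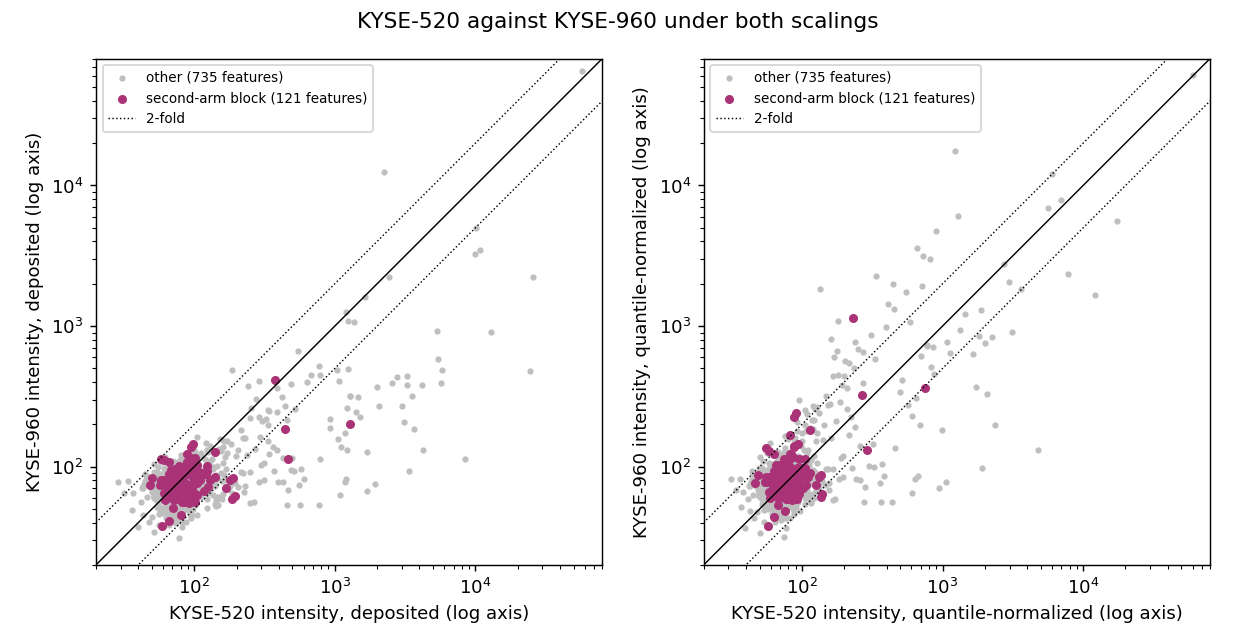
Intensity of each of the 856 features in KYSE-520 (horizontal log axis) against KYSE-960 (vertical log axis), as deposited (left) and after quantile normalization (right), with the line of equality and the 2-fold lines; features of the second-arm block are coloured. Features of the block called as different lie on the KYSE-520 side in the deposited values (8 of 8) and on both sides after normalization (2 and 3). Over all features these counts were 95 of 97, and 43 and 41.

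A value was taken to stand apart when it lay beyond those of the other 3 lines, on either side, by 2-fold or more. After normalization 1 feature of the block stood apart as higher, MIMAT0004682 in KYSE-960, against 2.8% of all features, and 0 stood apart as lower, against 1.52%. The normalized intensity of this feature was 226 in KYSE-960, and in KYSE-520 it was 88.2, in KYSE-450 84.1 and in KYSE-890 80.9. Its bounds ran from at least 1.19-fold over KYSE-890 to at least 1.93-fold over KYSE-520. In the deposited values it was replaced by MIMAT0004495 in KYSE-520, against 3.86% of all features standing apart as higher, and 0 stood apart as lower, against 1.17%. The deposited bounds of MIMAT0004495 ran from at least 1.38-fold over KYSE-450 to at least 1.45-fold over KYSE-890. Neither feature stood apart under both scalings, and none of these bounds reached 2-fold.

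The features set aside by the rule had signal of their own. MIMAT0004504 gave 506 in KYSE-450 against 170.5 in KYSE-520, and its values of 126 in KYSE-960 and 79.5 in KYSE-890 were not above background. MIMAT0004494 was above background in KYSE-520 alone, at 174. With both added, 13 of 123 features would have been above background in at least 1 line.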

How the data were processed

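MicroRNA features were measured on 4 one-colour arrays, 1 per cell line. The deposited values are intensities on a linear scale, 1 per feature and array, in multiples of 0.5. Per the labels' protocols the chip was read on a ProScanArray scanner. How spots were averaged, whether background was subtracted and how arrays were scaled is not stated in the sources used here. The array medians lie close to the dim features, and any background left in draws ratios of dim features towards 1.

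Arrays were quantile-normalized together over all 856 features with limma 3.58.1 in R 4.3.3, floored at the array median and taken to log2. Detection used the deposited values. The dim-side SD was the root mean square deviation below the median. Counts were made in Python 3.11.15 with pandas 2.3.3. Only the 2-fold call between KYSE-520 and KYSE-450 was tried on simulated arrays, which had equal brightness and changes in bright features alone. The counts of features above background or standing apart were not tried in this way. The members, lists and rules were chosen with earlier results of these data known. Every feature above background in at least 1 line was named. The fixed lists of hairpin families and cell-type markers, and the comparison of both arms and their sequences, were not run, since no accession could be matched to a name. The number of arrays limits the precision.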

Additional observations from a re-analysis of the deposited data

How the results depend on the processing

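No paired analysis was possible because no line had more than 1 array, and for the same reason none could be left out within a line. The planned comparisons of the 2 arms of a hairpin were not run. Of 92 alternative counts, 58 stayed within 1.5 times the reported count, and 34 did not. Apart from those with the deposited values, these counts were made for the block alone. The shares of all 856 features at the same settings were not counted, so no change is read as particular to the block. With the threshold at the median plus 2 SD, 22 features of the block were above background in at least 1 line, 6 in KYSE-890 and 12 in KYSE-960. At plus 5 SD these were 6 in at least 1 line and 3 in KYSE-960, and a common threshold left 3 in KYSE-960. In the deposited values KYSE-520 differed from KYSE-450 in 2 features, from KYSE-890 in 5 and from KYSE-960 in 8, and KYSE-890 differed from KYSE-960 in 0. Setting the medians of 184 shared features equal, or taking the background threshold as floor, left 0 between KYSE-890 and KYSE-960 and 0 standing apart as higher, and the latter left 3 between KYSE-520 and KYSE-960. Without the filter on dim features, 2 differed between KYSE-890 and KYSE-960 and 2 stood apart as higher. Requiring signal above background in all lines compared left 1 between KYSE-450 and KYSE-960, 0 between KYSE-890 and KYSE-960, 2 between KYSE-520 and KYSE-960 and 0 standing apart as higher. At 1.5-fold, the counts were 2 (KYSE-450 and KYSE-520), 6 (KYSE-450 and KYSE-960), 6 (KYSE-520 and KYSE-890), 10 (KYSE-520 and KYSE-960) and 3 (KYSE-890 and KYSE-960), with 3 standing apart as higher and 3 as lower. At 4-fold, KYSE-960 differed from KYSE-450 and from KYSE-520 in 1 feature each, and 0 differed in the remaining pairs or stood apart. MIMAT0004609 turned from higher in KYSE-890 than in KYSE-520 to lower, at 0.22 log2 for KYSE-520 minus KYSE-890, in the deposited values. Of 75 alternative values of named features, 16 passed under 2-fold with the direction kept. The causes were not tested beyond what a setting's construction shows. Adding back the 2 accessions set aside was chosen after seeing the data and moved no count by over 1.5 times. Dim signal limits every count here, since 110 of 121 features were not above background in any line.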
